A study of Mus musculus with 6 samples.

Results

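The 7 genes described here encode the inhibitors of cyclin-dependent kinases of the INK4 family (Cdkn2a, Cdkn2b, Cdkn2c and Cdkn2d) and the CIP family (Cdkn1a, Cdkn1b and Cdkn1c). They were chosen by symbol, as all probe sets that the platform annotation assigns to 1 of these symbols alone. This gave 9 of the 45037 probe sets tested and 7 of the 18193 genes read by the array, with a pair of probe sets each for Cdkn1a and Cdkn1b. Expression was measured in MIN6 cells, an insulin-producing mouse tumour line used in place of pancreatic beta cells, on 3 arrays after an siRNA against Hlxb9 and 3 arrays after a negative control siRNA. Hlxb9 is the older name of Mnx1, a homeobox transcription factor of beta cells and motor neurons. Both groups were transfected with siRNA, and total RNA was taken 72 hours later. Transfections were kept for the arrays where the western blot gave a loss of Hlxb9 protein above 75%, a selection by outcome. The sample labels call the cells sorted and give no gate. Each group comes from 1 cell line, and the arrays are taken as separate transfections, so p-values measure the spread between transfections of MIN6.

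INK4 proteins bind CDK4 and CDK6 and keep them from pairing with D cyclins, while CIP proteins bind assembled cyclin and kinase complexes, above all those of CDK2. Both families thereby hold back phosphorylation of the retinoblastoma protein and entry into S phase. In the endocrine pancreas, menin and its methyltransferase partners are known to sustain Cdkn1b and Cdkn2c, Polycomb proteins repress Cdkn2a in replicating beta cells, and Cdkn1c is an imprinted gene. Cdkn2a also encodes ARF, which binds Mdm2 and stabilises p53, from a separate first exon.

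Promoter windows from RefSeq (GRCm38.p6) were at hand for 6 of the 7 genes, 9 windows in all, each holding 250 bases before a transcript start and 50 bases from it. The 4 printed here belong to Cdkn1b and Cdkn2a, whose differences were the most marked of the family, and to the second start of Cdkn2c, the single window with the homeodomain core. Capitals mark GC boxes, GGGCGG on either strand, in the first 3, and the homeodomain core TAATTA in the window of Cdkn2c. Of the Cdkn2a windows, the first lies at the upstream start, which gives ARF, and the second at the inner start, which gives p16.
Cdkn1b, chr6:134920151-134920450, + strand: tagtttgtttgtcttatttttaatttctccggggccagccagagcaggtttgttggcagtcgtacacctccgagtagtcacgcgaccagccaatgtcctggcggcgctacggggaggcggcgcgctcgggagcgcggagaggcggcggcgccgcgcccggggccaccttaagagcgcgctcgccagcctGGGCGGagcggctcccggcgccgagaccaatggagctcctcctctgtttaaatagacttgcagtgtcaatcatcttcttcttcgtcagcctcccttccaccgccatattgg
Cdkn2a upstream start, chr4:89294570-89294869, - strand: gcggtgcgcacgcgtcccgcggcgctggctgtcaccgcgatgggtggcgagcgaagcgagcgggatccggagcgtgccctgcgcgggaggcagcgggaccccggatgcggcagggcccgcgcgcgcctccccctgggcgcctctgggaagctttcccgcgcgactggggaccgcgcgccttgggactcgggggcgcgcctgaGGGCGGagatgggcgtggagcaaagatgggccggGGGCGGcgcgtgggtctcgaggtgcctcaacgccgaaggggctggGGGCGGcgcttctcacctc
Cdkn2a inner start, chr4:89282143-89282442, - strand: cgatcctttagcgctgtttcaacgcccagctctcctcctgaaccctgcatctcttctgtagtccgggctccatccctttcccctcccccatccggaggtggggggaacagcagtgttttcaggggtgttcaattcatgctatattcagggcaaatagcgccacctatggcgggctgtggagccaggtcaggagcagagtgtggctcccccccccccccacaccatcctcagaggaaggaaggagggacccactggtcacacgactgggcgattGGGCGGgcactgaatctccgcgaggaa
Cdkn2c second start, chr4:109665323-109665622, - strand: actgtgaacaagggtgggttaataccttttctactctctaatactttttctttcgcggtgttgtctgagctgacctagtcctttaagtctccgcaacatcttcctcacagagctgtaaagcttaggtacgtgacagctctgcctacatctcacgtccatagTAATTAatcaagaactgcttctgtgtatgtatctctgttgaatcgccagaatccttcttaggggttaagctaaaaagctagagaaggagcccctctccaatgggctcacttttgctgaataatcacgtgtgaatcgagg

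A GC box stood in 7 of the 9 windows, with 1 in Cdkn1b, 3 at the upstream and 1 at the inner start of Cdkn2a, and 5 in Cdkn2d. Of all 32851 windows of that length, 35.7% hold one, a share not matched for GC content. The 7 windows with a GC box ran from 57.67% to 77% GC, above 64.45% to 97.57% of all windows. TAATTA, searched because Hlxb9 is a homeodomain protein, was found in 1 window, against 5.29% of all windows. The E-box CACGTG was found in the same Cdkn2c window (7.15% of all), while the forkhead motif GTAAACA (3.65% of all) and TATAAA (13.6% of all) were found in none of the 9. Both strands were searched, and none of these motifs contains another. GC content ran from 44% at the second Cdkn2c start to 77% at the upstream Cdkn2a start.

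Signals are given as log2 values of RMA, which corrects background, normalizes arrays by quantiles and sums the probes of a probe set. All 9 probe sets had a mean signal above the median of all probe sets, 5.16 log2. Cdkn1c lay close to that median, brighter than 50.5% of probe sets, and Cdkn2c was brighter than 97.6%. Brightness depends on the probes as well as on the transcript, so the genes were not ranked by level.

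Arrays correlated with each other at 0.988 or higher. Control replicate 3 stood apart, with correlations of 0.988 to 0.991. There the 3' and 5' Gapdh control probe sets were 2.13 log2 apart, with 0.65 to 0.78 elsewhere. Values without it therefore stand beside many of the results it moved. Where no such value is given, a result may still have moved. Mnx1 itself read 7.53, 7.41 and 7.28 after Hlxb9 siRNA and 7.82, 7.50 and 7.77 after control siRNA, a difference of -0.29 ± 0.13 log2 (SE) short of the threshold (adjusted p in limma = 0.659). With array weights that difference was -0.14 (limma adjusted p = 0.375). An exact permutation test, two-sided, gave p = 0.2, where the smallest possible is 0.1. The labelled cell type was borne out, with all 8 measured beta cell markers above the median signal and Ins2 between 13.79 and 13.87 on every array. Probe sets of Ins1 and Mafa are unnamed here. Of 20 markers of acinar, duct, stromal, endothelial and leukocyte cells, 3 exceeded the median signal (Cela1, Col1a1 and Cd68). Among 5 measured alpha, delta and PP cell markers, 4 exceeded it. The hormones Gcg and Sst were above 12.5 on every array. Ppy ran from 7.32 to 10.95 and Irx2 from 6.48 to 6.99, while Hhex was dim, at most 3.28.

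The question for this family is whether its transcripts differ when Hlxb9 is reduced. The test at an adjusted p of 0.05 was passed by 0 of the 9 probe sets, whose adjusted p in limma ran from 0.645 to 0.978, and by 0 of all 45037, 0.00%. Before adjustment, limma gave 2 of the 9 at a p of 0.05, where 7.62% of all probe sets reached that level. Those were the brighter Cdkn1b probe set, lower after Hlxb9 siRNA (3.76% of all probe sets were lower at that level), and the Cdkn2a probe set, higher (3.86% of all). These 2 members alone had groups that did not overlap, which held for 15.6% of all probe sets, 7.29% lower and 8.27% higher. In direction the members were split, 5 above and 4 below 0, with a median of 0.02 log2 beside 0.0041 for all probe sets. With array weights, which give less weight to arrays far from their group mean, limma called 2.51% of all probe sets and 0 of the 9. The weights were 4.46 for control replicate 2, 2.91 for Hlxb9 siRNA replicate 2 and 0.20 to 0.79 for the others. That fit therefore leaned on 1 array per group. In RNA taken from many cells together, fewer cells with a transcript and less of it per cell cannot be told apart. For 8 of the 9 the 95% interval of the difference lay within 2-fold in either direction.

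**Figure D1:**
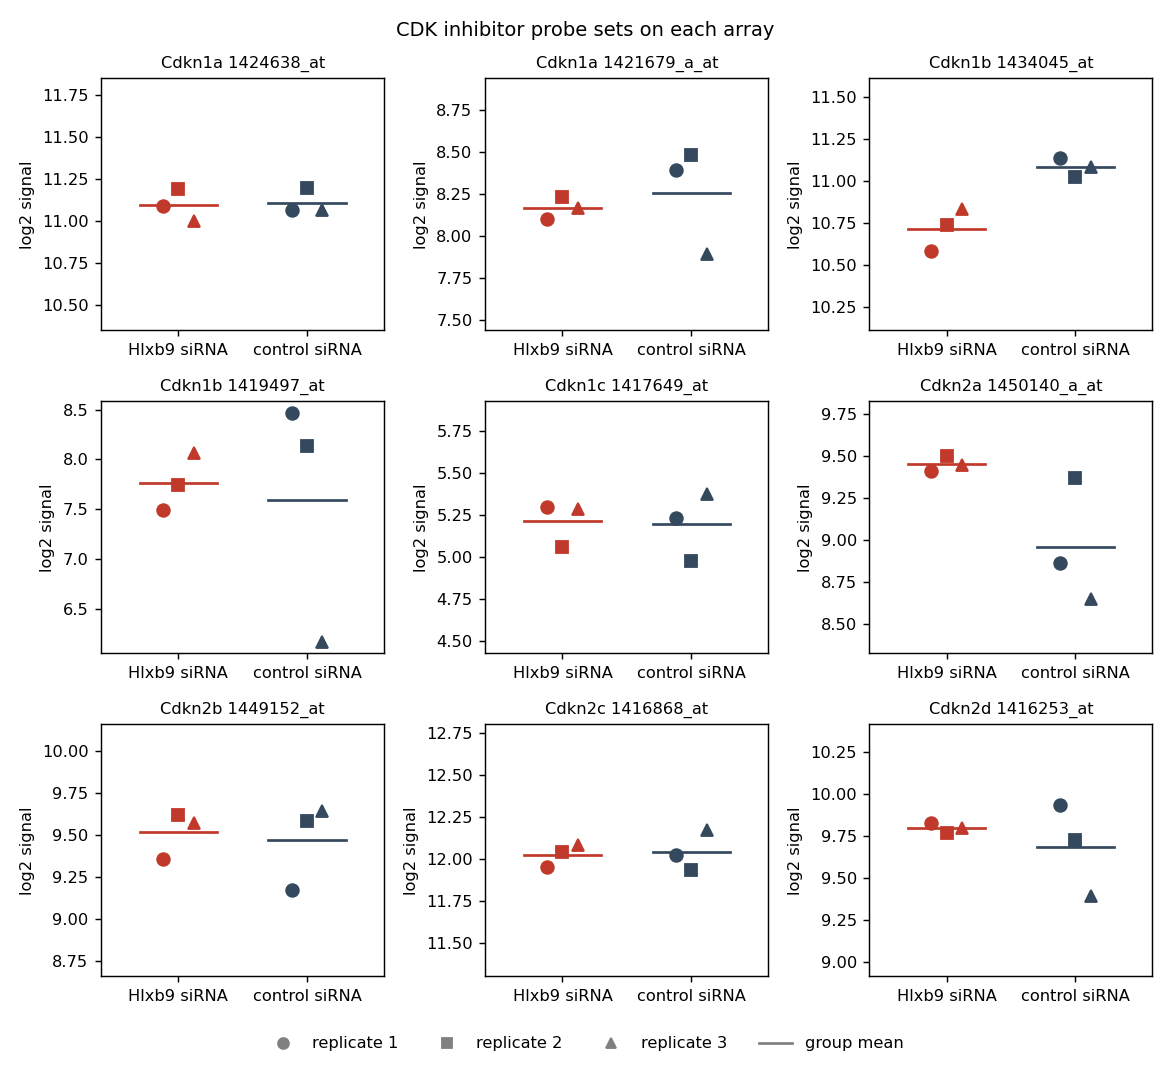
Log2 signal (y axis, each panel with its own range of at least 1.5 log2) of each CDK inhibitor probe set on the 3 Hlxb9 siRNA arrays (left in each panel) and the 3 control siRNA arrays (right). Symbols give the replicate number and bars the group mean. The groups are apart for Cdkn1b 1434045_at and Cdkn2a, and control replicate 3 is the lowest array for Cdkn1b 1419497_at at 6.17.

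Among the CIP genes, Cdkn1b encodes p27, which restrains CDK2 and whose protein is removed by the Skp2 ubiquitin ligase as cells enter S phase. Its brighter probe set, 1434045_at, read 10.58, 10.73 and 10.83 after Hlxb9 siRNA and 11.14, 11.02 and 11.08 after control siRNA. Every Hlxb9 siRNA array lay below every control array. The means were 10.72 ± 0.13 and 11.08 ± 0.06 (SD, n = 3 each), a difference of -0.37 ± 0.11 log2 (SE), or a level 22.4% lower, with a 95% interval from -0.62 to -0.11. It did not pass (limma adjusted p = 0.645), and 1.46% of all probe sets had a smaller p. Within arrays of equal replicate number it differed by -0.56, -0.29 and -0.25 log2, all negative because the groups do not overlap. Leaving out any 1 array kept it between -0.42 and -0.30, and without control replicate 3 it was -0.36.

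The other probe set of Cdkn1b, 1419497_at, read 7.50, 7.75 and 8.06 after Hlxb9 siRNA and 8.47, 8.13 and 6.17 after control siRNA. Control replicate 3 was the lowest of the 6 arrays and the remaining controls were the highest, so the groups overlapped. With all arrays the difference was 0.18 ± 0.54 log2 (SE), opposite in sign to the brighter probe set. Its residual SD, the spread within groups, was 0.90 log2, larger than that of 99.9% of probe sets. Without control replicate 3 the difference was -0.53 ± 0.18 log2 (SE), a level 30.8% lower, on the same side as the brighter probe set and again not past the threshold (limma adjusted p = 0.496).

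The disagreement between these probe sets was therefore read per array, as the brighter minus the other. This gap was 3.08, 2.99 and 2.77 log2 after Hlxb9 siRNA and 2.67, 2.89 and 4.91 after control siRNA. Control replicate 3 held the widest gap, and the remaining 5 arrays lay between 2.67 and 3.08. The gap differed by -0.54 log2 between the groups (exact permutation p = 0.9, two-sided, where the smallest possible is 0.1), and by 0.17 without control replicate 3 (exact permutation p = 0.4). The wide gap fell on the array whose Gapdh control ends were also far apart. The part of RNA quality in it was not tested.

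**Figure D2:**
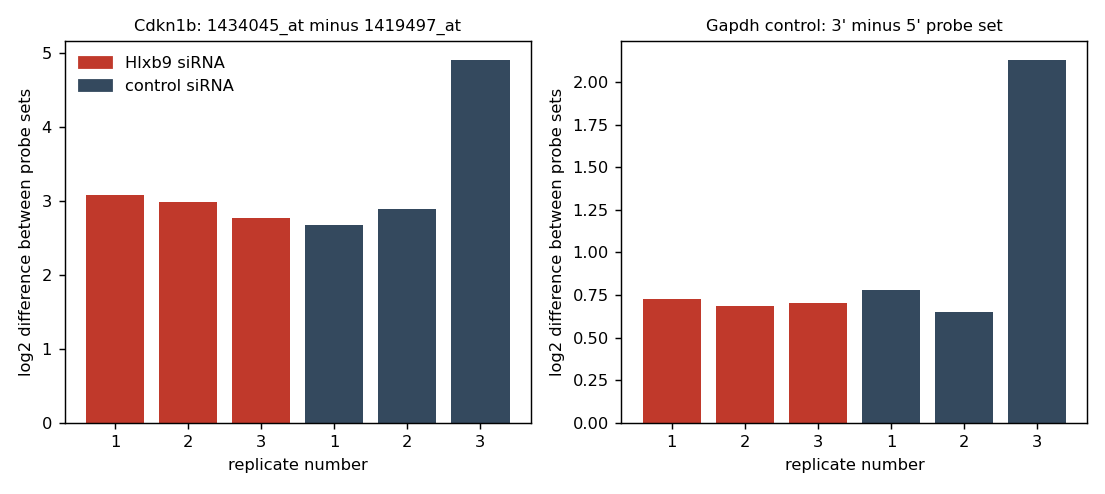
Left, signal of Cdkn1b probe set 1434045_at minus that of 1419497_at (log2, y axis) on each array, with replicate numbers on the x axis. Right, the 3' minus the 5' Gapdh control probe set (log2) on the same arrays. Bars in red are Hlxb9 siRNA and bars in dark blue control siRNA. Control replicate 3 has the tallest bar in both panels, 4.91 and 2.13.

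Cdkn1a encodes p21, the inhibitor that p53 induces after DNA damage and that also binds Pcna. Its brighter probe set, 1424638_at, read 11.09, 11.19 and 11.00 after Hlxb9 siRNA and 11.07, 11.20 and 11.07 after control siRNA, and the groups overlapped throughout. The difference was -0.02 ± 0.10 log2 (SE), with a 95% interval from -0.26 to 0.23. The second probe set, 1421679_a_at, whose suffix marks probes shared by transcript variants of a gene, read 8.10, 8.23 and 8.16 after Hlxb9 siRNA and 8.39, 8.48 and 7.89 after control siRNA. Here too control replicate 3 was the lowest array, while the other controls were the highest. The difference was -0.09 ± 0.16 log2 (SE) with all arrays and -0.27 without control replicate 3 (limma adjusted p = 0.501).

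Without that array, 3 of the 9 member probe sets had all Hlxb9 siRNA values below both controls, the pair of Cdkn1b and the second of Cdkn1a, against 11.7% of all probe sets. In 1 of the 9, Cdkn2a, all Hlxb9 siRNA values lay above both of those controls, as in 17% of all probe sets. At an unadjusted p of 0.05 limma then gave the 3 lower ones, where 9.51% of all probe sets reached that level, and none passed after adjustment. The brighter Cdkn1a probe set stood at -0.04 in that setting.

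Cdkn1c encodes p57, an imprinted inhibitor expressed from the maternal copy that acts mainly in development. It read 5.30, 5.06 and 5.29 after Hlxb9 siRNA and 5.24, 4.98 and 5.38 after control siRNA, so that the array numbered 2 was the lowest of both groups. The difference was 0.02 ± 0.14 log2 (SE), and 0.11 without control replicate 3.

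**Figure D3:**
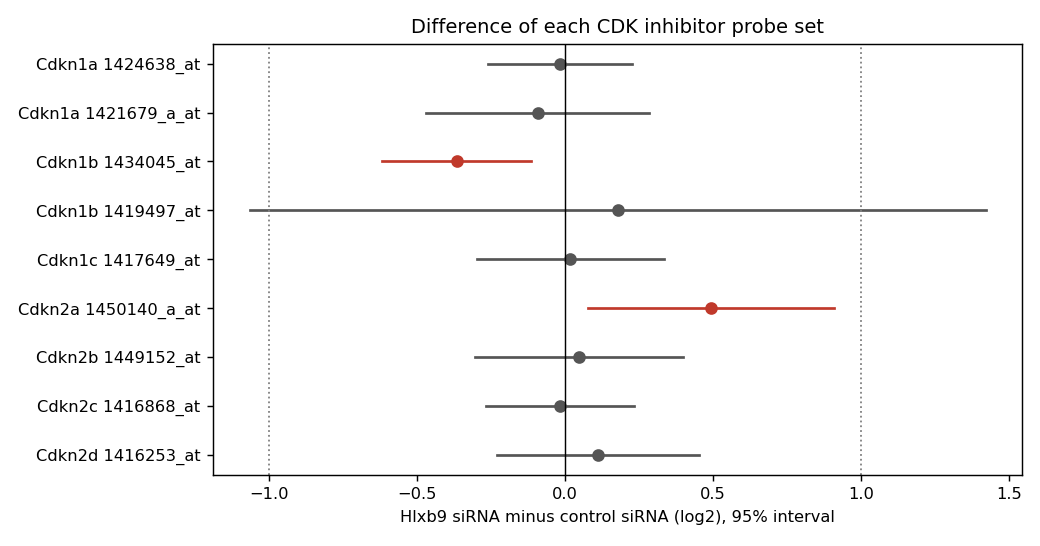
Difference of each CDK inhibitor probe set, Hlxb9 siRNA minus control siRNA (log2, x axis), with limma's 95% interval. Red marks an unadjusted p below 0.05, and dotted lines mark a 2-fold difference in either direction. The interval of Cdkn1b 1419497_at, from -1.06 to 1.42, is the widest and the sole one that reaches beyond 2-fold.

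Among the INK4 genes, Cdkn2a encodes p16, a CDK4 and CDK6 inhibitor, and ARF. Its only probe set, 1450140_a_at, has the suffix for shared transcript variants, so the products of the upstream and the inner start were not separated. It read 9.41, 9.50 and 9.45 after Hlxb9 siRNA and 8.86, 9.37 and 8.65 after control siRNA. The Hlxb9 siRNA arrays were tightly grouped above the controls, of which control replicate 2 came close to them. The means were 9.45 ± 0.04 and 8.96 ± 0.37 (SD, n = 3 each), a difference of 0.49 ± 0.18 log2 (SE), 1.41-fold, with a 95% interval from 0.08 to 0.91. It did not pass (limma adjusted p = 0.645), and 3.95% of probe sets had a smaller p. By replicate number the differences were 0.55, 0.13 and 0.80 log2, all positive because the groups do not overlap. Without control replicate 3 it stood at 0.34 (limma adjusted p = 0.541) and without control replicate 2 at 0.70, while weighting the arrays by their fit gave 0.20 ± 0.12 (SE).

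Cdkn2b, which encodes p15 and lies beside Cdkn2a on chromosome 4, is known as a target of TGF beta signalling. It read 9.36, 9.62 and 9.57 after Hlxb9 siRNA and 9.17, 9.58 and 9.64 after control siRNA. The array numbered 1 was the lowest of each group, and the groups overlapped. Its difference was 0.05 ± 0.15 log2 (SE), and 0.14 without control replicate 3.

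Cdkn2c encodes p18, whose loss together with that of p27 gives endocrine tumours in mice. It read 11.95, 12.04 and 12.08 after Hlxb9 siRNA and 12.02, 11.93 and 12.17 after control siRNA. The values interleave, and the difference of -0.02 ± 0.11 log2 (SE) has a 95% interval from -0.27 to 0.23. Without control replicate 3 it was 0.05. Cdkn2d encodes the INK4 protein p19, distinct from ARF. It read 9.83, 9.77 and 9.80 after Hlxb9 siRNA and 9.94, 9.73 and 9.39 after control siRNA, with the Hlxb9 siRNA arrays inside the range of the controls. The difference of 0.11 ± 0.15 log2 (SE) was -0.03 without control replicate 3.

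**Figure D4:**
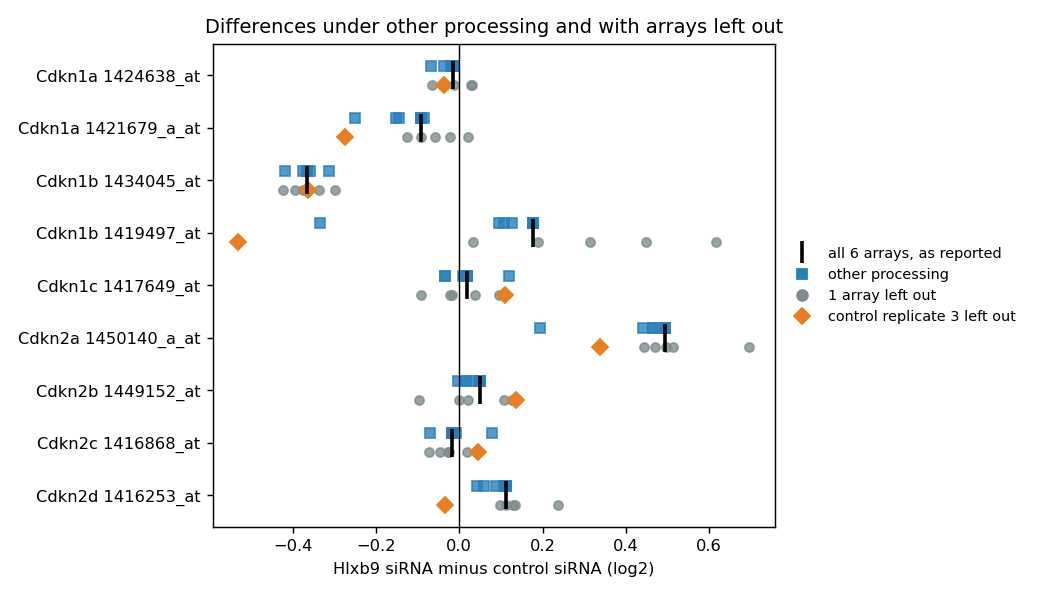
Difference of each CDK inhibitor probe set, Hlxb9 siRNA minus control siRNA (log2, x axis), as reported (black bar), under other processing (blue squares) and with 1 array left out (grey circles, orange diamond for control replicate 3). Cdkn1b 1434045_at and Cdkn2a keep their sign in all of them, which for left-out arrays follows from their non-overlapping groups. Cdkn1b 1419497_at moves to -0.53 without control replicate 3.

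The targets of these inhibitors were read from a list of 14 kinases and cyclins, of which 13 were measured by their brightest probe set. Limma called 0 of the 13 after adjustment, and at an unadjusted p of 0.05 gave 1 lower and 0 higher, where 7.95% of all genes reached that level in either direction. The member concerned was Ccne2, an E cyclin that activates CDK2 at S phase entry, the complex that p27 binds. Ccne2 read 8.89, 9.09 and 9.11 after Hlxb9 siRNA and 9.45, 9.36 and 9.51 after control siRNA, without overlap. Its difference was -0.41 ± 0.11 log2 (SE, limma adjusted p = 0.645). Ccna1, the germ cell A cyclin, differed by -0.32 on a dim probe set, 3.05 after Hlxb9 siRNA and 3.38 after control siRNA. Ccnd2, a partner of CDK4, differed by 0.26, by 0.11 without control replicate 3, and by 0.10 to 0.60 on its 6 other probe sets. Cdk4, the main INK4 target in beta cells, differed by 0.09 ± 0.10 (SE). Cdk2 differed by 0.13 ± 0.14 (SE), by 0.0092 without control replicate 3, and by -0.20 on its other probe set.

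The 13 pocket proteins and E2F factors downstream comprised 6 with a positive and 7 with a negative difference (median -0.02 log2), and 0 passed either level. E2f8, a repressor of the E2F family, stood at -0.18 on the brighter and 0.16 on the second probe set, and E2f2, an activator, at 0.29, or 0.09 without control replicate 3, and at 0.02 on its other probe set. Rb1, the retinoblastoma protein on which the kinases act, differed by -0.20 ± 0.13 (SE), by -0.09 without Hlxb9 siRNA replicate 1, and by -0.06 on its other probe set. The list for ubiquitin turnover of the inhibitors was even, with 8 of its 16 genes higher and 8 lower, a median of 0.0025 and 0 past either level. Its genes need not all act on p27 and p21 in the same direction. Fzr1, an activator of the anaphase promoting complex, differed by 0.28 ± 0.13 (SE), while Cul4a, the scaffold of the ligase that removes p21 in S phase, differed by -0.28, or -0.14 without control replicate 3. Rnf123, a subunit of the cytoplasmic ligase of p27, differed by -0.22 ± 0.11. Skp2, the receptor of the nuclear ligase of p27, differed by -0.04 ± 0.13 (SE), by -0.15 without control replicate 3, and by -0.28 to 0.40 on its other probe sets.

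The ARF and p53 list had 9 of 10 genes measured, all but Trp53 itself, the gene of p53, with 7 higher and 2 lower. Its median was 0.11 log2 beside 0.0023 for all genes, of which 50.6% were higher. None of the 9 reached an unadjusted p of 0.05. Npm1, the nucleolar partner of ARF, read 12.35 ± 0.06 after Hlxb9 siRNA and 12.13 ± 0.14 after control siRNA (SD, n = 3 each), a difference of 0.22. Without control replicate 3 that difference was 0.14. Mdm4, a p53 inhibitor, differed by 0.21, with its others between -0.12 and 0.25, and the checkpoint kinase gene Chek2 by 0.18. Chek2 stood at 0.29 without control replicate 1 and at 0.10 without Hlxb9 siRNA replicate 3. Read from plain _at probe sets alone, 7 genes, the median of this list was 0.0026.

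Upstream regulators were 32 chromatin and transcription factors, 18 of them higher and 14 lower. Their median was 0.0099 log2 and 0 passed either level. Myc, which represses Cdkn1a and Cdkn2b through its partner Zbtb17, had the lowest value of the list, -0.62 ± 0.36 (SE), on a dim probe set, and -0.15 without control replicate 3. Gfi1, a repressor dim in both groups, differed by 0.21, or 0.14 without Hlxb9 siRNA replicate 2, and Smad2, a mediator of TGF beta signalling, by 0.14 ± 0.10. The menin gene Men1 differed by -0.17 ± 0.16, its methyltransferase partner Kmt2a by 0.23 ± 0.28, the Polycomb genes Ezh2 by 0.0085 ± 0.13 and Bmi1 by -0.03 ± 0.12 (SE). Without control replicate 3 these stood at 0.01 for Men1, -0.09 for Kmt2a, 0.12 for Ezh2 and 0.06 for Bmi1. For Men1, Kmt2a and Bmi1 that sign is opposite to the one with all arrays. Other probe sets gave -0.35 to 0.12 for Men1, 0.05 for Kmt2a and -0.13 for Bmi1.

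Chromosomal neighbours were followed for Cdkn1c on chromosome 7 and for Cdkn2a and Cdkn2b on chromosome 4, with 12 of 13 measured, 5 higher and 7 lower. At an unadjusted p of 0.05 limma gave 1 higher and 1 lower, both near Cdkn1c. Trpm5, a cation channel of beta and taste cells, read 10.27, 10.31 and 10.18 after Hlxb9 siRNA and 9.93, 10.06 and 9.90 after control siRNA, a difference of 0.30 ± 0.10 log2 (SE, limma adjusted p = 0.645). Ascl2, a basic helix-loop-helix factor, read 6.49, 6.43 and 6.26 after Hlxb9 siRNA and 6.77, 6.60 and 7.07 after control siRNA, a difference of -0.42 ± 0.14 (SE, limma adjusted p = 0.645), or -0.29 without control replicate 3. Both genes had groups that did not overlap. On their 2 other probe sets each, Trpm5 ran from 0.12 to 0.39 and Ascl2 from -0.85 to -0.08. The imprinted gene Phlda2 differed by -0.24 ± 0.10 and Kcnq1ot1, the noncoding RNA that silences this domain, by 0.36 ± 0.31 (SE). Without control replicate 3 Kcnq1ot1 stood at -0.02, and its 5 other probe sets ran from -0.06 to 0.30. Beside Cdkn2a, Mtap differed by -0.02 ± 0.11 (SE), and by 0.0040 to 0.31 on its 3 other probe sets. Dmrta1 differed by -0.35 ± 0.16 (SE), or -0.51 without control replicate 3, opposite in sign to Cdkn2a.

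Over all 6 lists, limma gave 3 of 95 genes at an unadjusted p of 0.05, and 8 of 95 without control replicate 3, where 7.95% and 10.2% of all genes reached that level. The groups did not overlap for 15 of the 95, against 17.3% of all genes.

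For each inhibitor the genes with the most similar profile were sought among 11344 genes above the median signal, by the root mean square distance between mean-centred log2 values over the 6 arrays. Tubb3, a tubulin of neurons, was nearest to Cdkn2b at 0.034 log2, followed by the imprinted gene Mest, and Tubb3 stayed among the nearest pair in 5 of 6 sets of arrays with 1 left out. Herpud2 and Atp13a3 were nearest to the brighter Cdkn1b probe set, at 0.036 and 0.037, and Zfp524 and Trpm4 to Cdkn2a, at 0.063 and 0.065. For Cdkn1a these were Dnaic2 and Mllt11, for Cdkn1c Taf8 and Dennd4c, for Cdkn2c Pola1 and Abitram, and for Cdkn2d Zhx2 and Pik3ca, at 0.021 to 0.041. The root mean square of a member's own centred profile ran from 0.071 log2 for Cdkn1a to 0.33 for Cdkn2a. Distances are therefore not comparable between members, and the distance that unrelated genes would give was not tested. Dnaic2 stayed in 3 of 6 such sets, and each of the remaining genes in at most 1 of 6, so leaving out an array usually changed them.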

How the data were processed

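Total RNA from 6 MIN6 transfections, 3 with Hlxb9 siRNA and 3 with control siRNA, was labelled from 6 ug and hybridised to an Affymetrix mouse array. The authors deposited log2 signals, and the submitters' processing notes name RMA and Partek without versions. Neither RMA settings nor a genome build is given in the sources used here. Precision is limited by how many arrays there are.

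The 64 control probe sets were set aside. Of the 45037 others, 34945 have 1 gene symbol in the platform annotation, 932 several, and 9160 are unnamed here. Identifiers of 34741 matched RefSeq (GRCm38.p6), used for names, and 0 symbols changed. Outside the members, a gene was read by its brightest probe set.

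Groups were compared with limma 3.58.1 (R 4.3.3, statmod 1.5.0), lmFit and eBayes on all probe sets, no covariate, two-sided, Benjamini-Hochberg adjusted at 0.05. The script was tested on simulated data. SE is limma's moderated error and SD has n = 3. The Cdkn1b gap had an exact permutation test. Deviations from the group means correlated at 0.155, 0.165 and 0.202 between arrays of equal number, and at 0.072 or lower between others. This was taken as pairing. The labels state no shared day, so the pairing comes from the values. The fit as reported leaves it out, so its SE, intervals and p-values treat the arrays as unpaired. The replicate block is given as an alternative.

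The members, the lists and the naming rule (all members, the 3 genes of each of 6 lists with the smallest p, and the 2 nearest profiles per member) were chosen with earlier results of these data known. Other genes of these lists were named after their values were seen, for their known role: Cdk2, Cdk4, Skp2, Men1, Kmt2a, Ezh2, Bmi1, Mtap, Dmrta1 and Kcnq1ot1. Alternatives were the replicate block, other scalings, an offset of 32, a filter on dim probe sets, another variance prior, array weights, leaving out each array, and other probe sets of a gene.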

Additional observations from a re-analysis of the deposited data

How the results depend on the processing

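Limma called 0 of the 9 CDK inhibitor probe sets at an adjusted p of 0.05 under every alternative run, and 0 at 0.1 in the fit as reported. Their adjusted p was lowest, 0.0616, for Cdkn1b 1434045_at with array weights, where limma called 579 probe sets higher and 553 lower (2.51% of those tested) but 0 with all arrays weighted equally. The weighted fit leaned on replicate 2 of each group. With array weights Cdkn1b 1419497_at stood at -0.33 and Cdkn2c at 0.078, opposite in sign to the reported values. After centring on array medians Cdkn1c was -0.034 and Cdkn2b -0.0030, and after repeated quantile normalization Cdkn1c was -0.034. Leaving out each array in turn spanned -0.065 to 0.031 for Cdkn1a 1424638_at, -0.27 to 0.020 for Cdkn1a 1421679_a_at, -0.53 to 0.62 for Cdkn1b 1419497_at, -0.091 to 0.11 for Cdkn1c, -0.097 to 0.14 for Cdkn2b, -0.072 to 0.046 for Cdkn2c and -0.034 to 0.24 for Cdkn2d, so each of these has no settled sign. The gap between the Cdkn1b probe sets spanned -0.95 to 0.17, positive only where control replicate 3 was left out. Cdkn1b 1434045_at ran from -0.42 to -0.30 and Cdkn2a from 0.34 to 0.70, with signs that non-overlapping groups fix whichever array is left out. With 1 array left out, the unadjusted p in limma for Cdkn2a was below 0.05 only without control replicate 2. It ran from 0.0538 to 0.0712 without any other array, and was 0.151 with array weights. That of Cdkn1b 1434045_at was at most 0.0388 with 1 array left out. Under the replicate block the adjusted p in limma was 0.506 for Cdkn1b 1434045_at, 0.500 for Cdkn2a and 0.544 for Mnx1, and the paired gap of Cdkn1b, -0.54, had an exact permutation p of 1, where the smallest possible is 0.25. The block changed no call at the adjusted threshold. Its unadjusted p in limma was 0.0205 for Cdkn1b 1434045_at and 0.0161 for Cdkn2a, beside 0.0101 and 0.0260 in the fit as reported. With the block 9.31% of all probe sets were below 0.05, and without it 7.62%. Of the alternatives to list medians, 9 moved them by more than the replicate spread, and the 18 list genes named by rule kept their sign under the scalings, weights, offset, filter, prior, block and left-out arrays. By other probe sets E2f8 and Mdm4 did not, and leaving out 1 array moved 8 of the 18 by over 1.5 times. Of the 10 named for their role, Skp2 spanned -0.15 to 0.070, Men1 -0.27 to 0.011, Kmt2a -0.087 to 0.47, Ezh2 -0.069 to 0.12, Bmi1 -0.098 to 0.058, Mtap -0.059 to 0.050 and Kcnq1ot1 -0.024 to 0.65 with 1 array left out. Array weights gave Kmt2a -0.061, Bmi1 0.019 and Kcnq1ot1 -0.038, and Ezh2 was -0.044 after centring and -0.012 after repeated quantile normalization. Dmrta1 passed the threshold with array weights, at -0.42 (limma adjusted p = 0.0476). Causes were not tested.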

Other observations

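Relative to the mean of the other 5 arrays, control replicate 3 read -1.81 log2 on Cdkn1b 1419497_at, a deviation larger than that of 99.9% of probe sets. It read -0.67 on Cdkn2a, -0.42 on Cdkn2d and -0.38 on Cdkn1a 1421679_a_at. The other members deviated by -0.04 to 0.22 log2.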
